A study of Rattus norvegicus with 12 samples.

Results

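The small leucine-rich proteoglycans (SLRPs) described here were the 9 genes Prelp, Dcn, Bgn, Lum, Fmod, Omd, Ogn, Aspn and Podn, taken by symbol from the 22850 features of the deposited tables. All 9 were found, and all 9 passed the filter on low counts in every comparison. The libraries came from primary atrial fibroblasts of Sprague-Dawley rats aged 1 to 3 days. Every culture received angiotensin II (AngII), the vasoconstrictor peptide that drives fibroblast activation, at 1 µmol/L for 48 h in medium with 2% FBS. In the group AngII+HNG, the humanin analogue HNG was added at 10 µmol/L 1 h before AngII, and in the group AngII+MOTS-c, the mitochondrial-derived peptide MOTS-c was added at 5 µmol/L 1 h before AngII. Each of the 3 treatments had 4 libraries, 12 in all, and cells without AngII were not analysed here.

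SLRPs are secreted core proteins built of leucine-rich repeats, and most carry chondroitin, dermatan or keratan sulfate chains. They sit on collagen fibrils, where they set fibril diameter and spacing, and several hold growth factors of the TGF-β and BMP families or act as ligands of cell surface receptors. In the heart they are made mainly by fibroblasts. Class I holds Dcn (decorin, which binds collagen fibrils and TGF-β), Bgn (biglycan, which binds collagen and Toll-like receptors) and Aspn (asporin, which binds collagen and TGF-β but lacks glycosaminoglycan chains). Class II holds Fmod (fibromodulin, which binds collagen I and regulates fibril assembly), Lum (lumican, which regulates fibril spacing), Prelp (a heparin-binding protein that links basement membranes to connective tissue) and Omd (osteomodulin, best known from bone). Ogn (osteoglycin, also called mimecan) belongs to class III, and Podn (podocan) stands outside these classes.

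Depth was 27960586 to 38322354 counts per library. The fibroblast list fixed for this work was high in all libraries, with a summed 72408 to 79900 CPM (counts per library, scaled to equal totals). Markers of other cells were present as well, which differential adhesion enriches against but does not sort out, and the summed cardiomyocyte list reached 5536 to 7340 CPM. Replicate 4 stood apart for several SLRP genes in all 3 treatments, as described below, and the sources used here do not say what a replicate number marks. Libraries named as replicates 2 and 3 share a number in their library names. AngII+HNG replicate 3 differed most from the others of its treatment in its counts over all genes, with a chi-square of 14.3 to 19.4 per gene against 5.31 to 8.89 between the other 3. The study's methods call the 4 libraries of a treatment biological replicates, and p-values measure the spread between them.

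Levels were first compared per transcript length, as FPKM, in which a count is divided by transcript length and library total. Bgn was by far the most abundant member, at 2144 ± 91.3 FPKM (SD, n = 12), and ranked 16 among the 22850 features. It made up 79.3% of the summed FPKM of the 9 genes, between 77.7% and 80.6% in single libraries. Ogn followed at 207.8 ± 11.4 FPKM, Aspn at 118.2 ± 12.4, Lum at 87.6 ± 11.5 and Dcn at 71.0 ± 13.4 FPKM, each above the next in 12 of 12 libraries. Prelp at 24.7 ± 5.74 FPKM, Podn at 23.4 ± 3.29 and Fmod at 22.1 ± 2.86 FPKM came next and could not be ordered over all libraries, since Prelp exceeded Podn in 8 of 12 and Podn exceeded Fmod in 7 of 12. Omd was lowest at 6.43 ± 0.441 FPKM, below Fmod in 12 of 12 libraries.

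**Figure D1:**
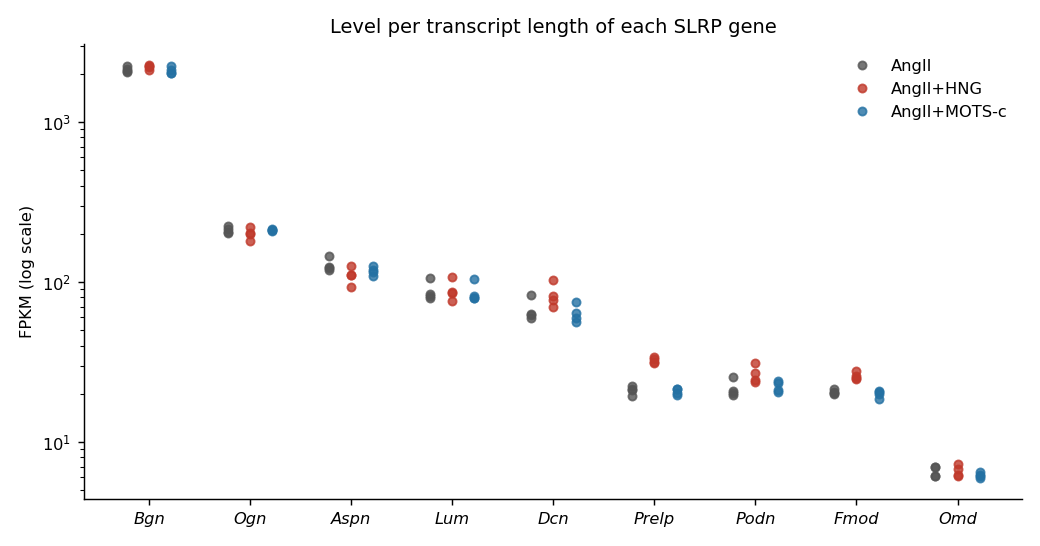
FPKM on a log axis for the 9 SLRP genes, with 1 point per library and 4 points per treatment. Bgn lies between 2012 and 2283 FPKM and Omd between 5.92 and 7.24 FPKM in the 12 libraries, while Prelp, Podn and Fmod lie close together, with Prelp raised in the AngII+HNG libraries.

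The place of Prelp in this order differed between treatments. In AngII libraries Prelp stood at 21.0 ± 1.24 FPKM (SD, n = 4) and Podn at 21.5 ± 2.57 FPKM. Prelp was the higher of the pair in 3 of 4 of these libraries, and the mean of Podn was higher only through replicate 4, at 25.3 FPKM. In AngII+HNG libraries Prelp stood at 32.3 ± 1.19 FPKM and Podn at 26.5 ± 3.27 FPKM, with Prelp higher in 4 of 4. In AngII+MOTS-c libraries Prelp stood at 20.7 ± 0.956 FPKM, below Podn at 22.2 ± 1.71 FPKM in 3 of 4 libraries. The ratio of Prelp to Fmod in FPKM was 0.949 to 1.08 in the AngII libraries, 0.977 to 1.08 in the AngII+MOTS-c libraries and 1.14 to 1.33 in the AngII+HNG libraries. The HNG ratios lay wholly above the others. The transcript length implied by the count and FPKM of Prelp ranged from 3448 to 3663 bases between libraries, a spread of 6.23%, against 0.466% for Fmod and 0.479% for Bgn. Treatment comparisons were therefore made on counts.

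The first comparison asked how the SLRP genes differed when HNG was added to AngII. Prelp was the member with the largest fold change. It measured 78.0, 77.8, 74.2 and 70.7 CPM in AngII replicates 1 to 4 and 110.6, 116.9, 116.4 and 113.5 CPM in AngII+HNG replicates 1 to 4. The lowest HNG library stood above the highest AngII library. The level was 1.53-fold higher with HNG, with a log2 fold change of 0.61 ± 0.0427 (SE, n = 4 against 4), a 95% interval of 1.43-fold to 1.63-fold and an adjusted p of 9.65e-06 by the quasi-likelihood test of edgeR. The study picked Prelp as a gene raised by HNG from these same libraries, so this value is not independent evidence of that direction. It also reports qPCR of Prelp in separate fibroblast samples, with the same direction of change.

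Fmod, the class II member that regulates collagen fibril assembly, also rose. Its values were 66.6, 63.6, 61.6 and 63.4 CPM in AngII replicates 1 to 4 and 76.1, 78.7, 75.2 and 84.2 CPM in AngII+HNG replicates 1 to 4. Again the groups did not overlap. The fold was 1.24, with a log2 fold change of 0.31 ± 0.0463 (SE), a 95% interval of 1.15-fold to 1.32-fold and an edgeR adjusted p of 0.00227. The log2 fold change of Prelp was 0.61, and its interval of 0.518 to 0.703 did not overlap that of Fmod, 0.205 to 0.406.

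Prelp and Fmod were thus 2 of 9 members with an adjusted p below 0.05, both higher, against 5.98% of the 14524 genes tested (869 genes), or 3.40% counted in the higher direction alone. They were also the 2 members whose groups did not overlap in CPM, which held for 13.7% of all genes tested. The study had picked Prelp from these libraries, and the members were chosen with earlier results known. Neither count is therefore one of unselected genes. The median log2 fold change of the 9 members was 0.0346, beside 0.00431 over all genes tested, and 6 of the 9 values were positive. Both calls held in all 20 alternative analyses, in which the log2 fold change of Prelp ranged from 0.58 to 0.627 and that of Fmod from 0.267 to 0.325.

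**Figure D2:**
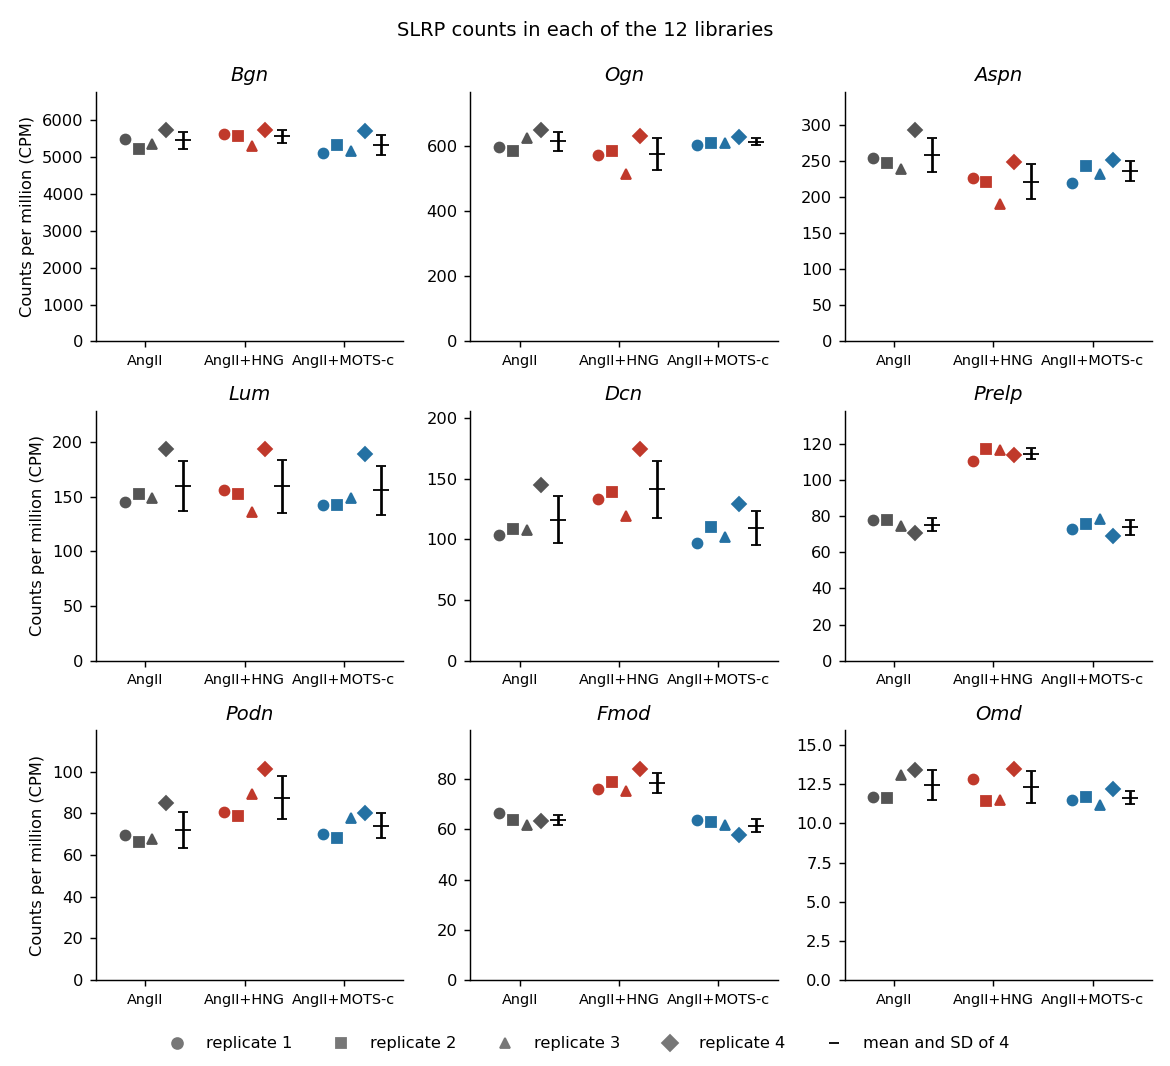
CPM of each SLRP gene in the 12 libraries, with 1 panel per gene, axes starting at 0, marker shapes for replicates 1 to 4, and bars for the mean and SD of the 4 libraries of a treatment. For Prelp and Fmod the AngII+HNG libraries lie above all others, and for Lum and Dcn replicate 4 is the highest library in each treatment.

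The class I genes did not pass the threshold in this fit. Dcn measured 103.6, 108.5, 107.3 and 145.1 CPM in AngII replicates 1 to 4 and 133.2, 138.7, 118.8 and 174.2 CPM in AngII+HNG replicates 1 to 4. All 4 HNG libraries lay above the AngII mean of 116.1 CPM, yet the groups overlapped because AngII replicate 4 was high. The log2 fold change was 0.29 ± 0.117 (SE) with an edgeR adjusted p of 0.19. Without AngII replicate 4 it was 0.41 with an adjusted p of 0.0338, without AngII+HNG replicate 4 it was 0.17 with an adjusted p of 0.413, and with replicates 1 to 3 alone it was 0.295 with an adjusted p of 0.0179.

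Aspn, the class I member without sulfated chains, had a value in the other direction. It measured 254.9, 247.1, 238.9 and 293.5 CPM in AngII replicates 1 to 4 and 226.5, 220.8, 190.2 and 249.3 CPM in AngII+HNG replicates 1 to 4. All 4 HNG libraries lay below the AngII mean of 258.6 CPM, with overlap between the groups. The log2 fold change was -0.22 ± 0.0777 (SE, edgeR adjusted p = 0.132). Blocking by replicate number gave an edgeR adjusted p of 0.00551. Bgn ranged from 5225 to 5744 CPM in AngII and from 5319 to 5746 CPM in AngII+HNG libraries. Its log2 fold change was 0.03 ± 0.0383 (SE, adjusted p = 0.686 by edgeR), and the 95% interval of 0.967-fold to 1.08-fold bounds any difference in this most abundant SLRP.

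Of the remaining class II genes, Lum was at 159.3 ± 24.2 CPM with HNG and 159.9 ± 22.6 CPM with AngII alone (SD, n = 4). The fold was 1.0 with a 95% interval of 0.855 to 1.17. Omd was at 12.3 ± 1.03 CPM with HNG and 12.5 ± 0.919 CPM with AngII, with a 95% interval of 0.873-fold to 1.12-fold. Class III Ogn was at 575.9 ± 48.5 CPM with HNG and 615.6 ± 28.8 CPM with AngII, and its log2 fold change of -0.09 ± 0.0567 (SE) had an edgeR adjusted p of 0.41. These 3 genes overlapped between the groups and were not called in any of the 20 alternatives.

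Podn, which encodes podocan, a protein known to restrain smooth muscle cell growth, measured 69.6, 66.2, 67.5 and 85.1 CPM in AngII replicates 1 to 4 and 80.7, 78.6, 89.1 and 101.5 CPM in AngII+HNG replicates 1 to 4. All 4 HNG libraries lay above the AngII mean of 72.1 CPM, and AngII replicate 4 again reached into the HNG range. The log2 fold change was 0.28 ± 0.0896 (SE) with an edgeR adjusted p of 0.0902, and DESeq2 gave 0.0261. Without AngII replicate 4 the edgeR value was 0.37 with an adjusted p of 0.019, and without AngII+HNG replicate 4 it was 0.20 with an adjusted p of 0.212. Blocking by replicate number gave an edgeR adjusted p of 0.00298.

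The second comparison set AngII+MOTS-c against AngII alone. No member was called, and no member reached an unadjusted p below 0.05 by edgeR, with 0 of 9 called by DESeq2 as well. Of all 14488 genes tested 1 gene was called, or 0.00690%, and this was Trim15, named here after its values were seen. Prelp measured 72.6, 75.4, 78.3 and 68.7 CPM in AngII+MOTS-c replicates 1 to 4, overlapping the AngII libraries at both ends. Its log2 fold change was -0.03 ± 0.046 (SE), with a 95% interval of 0.917-fold to 1.05-fold. Fmod measured 63.8, 63.0, 61.6 and 57.7 CPM with MOTS-c, and its interval was 0.909-fold to 1.03-fold.

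The other 7 members had log2 fold changes between -0.126 and 0.038 with MOTS-c, and edgeR adjusted p-values over the 9 members ran from 0.924 to 0.997. The farthest from 0 was Aspn, at 236.8 ± 13.8 CPM with MOTS-c and 258.6 ± 24.2 CPM with AngII, with a 95% interval of 0.84-fold to 1.0-fold. Among the widest intervals was that of Dcn, from 0.81-fold to 1.1-fold, which does not exclude a difference of that size. No member was free of overlap between these 2 groups, against 3.41% of all genes tested.

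The third comparison set the 2 peptides against each other and shares its libraries with the comparisons above. Prelp was 1.55-fold higher with HNG than with MOTS-c, with a log2 fold change of 0.63 ± 0.0458 (SE), a 95% interval of 1.45-fold to 1.66-fold and an edgeR adjusted p of 3.37e-05. Fmod was 1.28-fold higher, with a log2 fold change of 0.35 ± 0.0491 (SE), an interval of 1.19-fold to 1.38-fold and an edgeR adjusted p of 0.00191. For both genes all 4 HNG libraries stood above all 4 MOTS-c libraries. The study's choice of Prelp rested on these HNG libraries here too. This contrast is the test of whether the 2 peptides differed in effect over the common AngII background. The doses were 10 µmol/L for HNG and 5 µmol/L for MOTS-c, so the peptides were not compared at matched doses.

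Prelp and Fmod were 2 of 9 members called between the peptides, both higher with HNG, against 4.41% of the 14448 genes tested (637 genes) and 2.64% in the higher direction. Here too the count includes Prelp, which the study had picked. Groups that did not overlap made up 12.6% of the genes tested. Dcn was at 141.2 ± 23.5 CPM with HNG and 109.6 ± 14.0 CPM with MOTS-c, with a log2 fold change of 0.37 ± 0.107 (SE) and an edgeR adjusted p of 0.0768. Without AngII+HNG replicate 3 the value for Dcn was 0.44 with an adjusted p of 0.0263, and without AngII+MOTS-c replicate 4 it was 0.46 with an adjusted p of 0.0309. Without AngII+HNG replicate 4 it was 0.25 with an adjusted p of 0.155, and over all single omissions the adjusted p for Dcn ran from 0.0263 to 0.205. Podn was at 87.5 ± 10.4 CPM with HNG and 74.0 ± 5.93 CPM with MOTS-c, with a log2 fold change of 0.24 and an edgeR adjusted p of 0.111, while DESeq2 gave 0.0466. The other 5 members had log2 fold changes of -0.0943 to 0.0795 and adjusted p-values of 0.383 to 0.897.

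**Figure D3:**
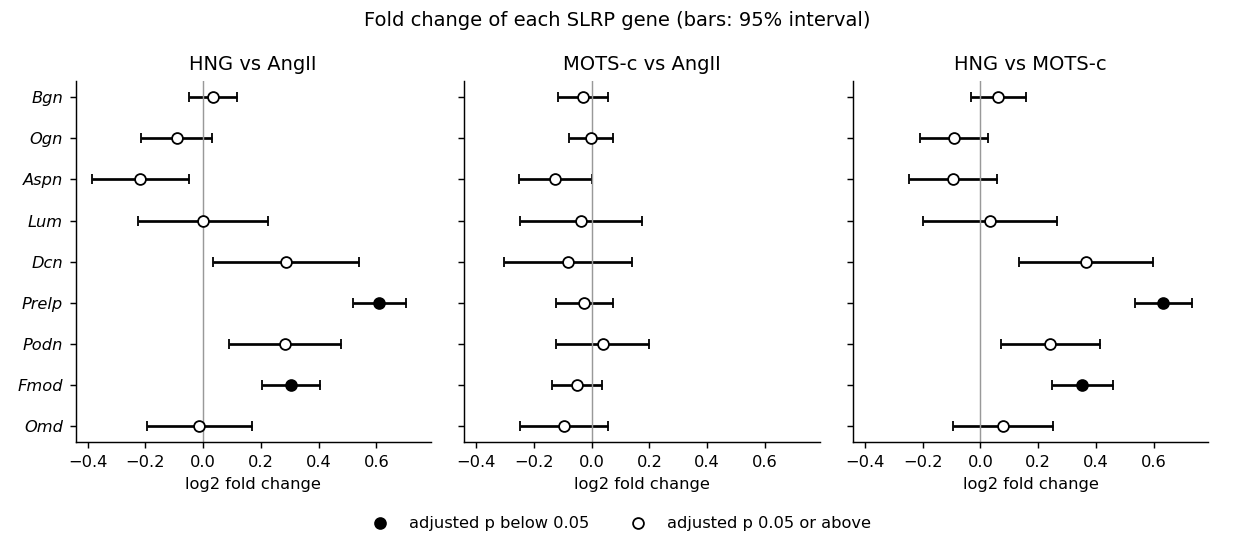
Log2 fold change of the 9 SLRP genes in the 3 comparisons, with bars for the 95% interval and filled points for an edgeR adjusted p below 0.05. Prelp and Fmod are filled in both comparisons that contain HNG, and no gene is filled between MOTS-c and AngII.

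Prelp and Fmod lie close together on the chromosome. In the RefSeq gene order, the SLRP gene Optc (opticin, a class III member known from the eye) is next to Prelp, and 3 genes for long noncoding RNAs, 0 of them in the deposited tables, lie between Prelp and Fmod. This arrangement was looked up after the values were seen. Optc was scarce, at 5.02, 4.65, 4.5 and 4.22 CPM in AngII replicates 1 to 4, 6.85, 6.56, 5.83 and 6.96 CPM with HNG and 3.45, 4.53, 4.13 and 3.8 CPM with MOTS-c. The HNG libraries lay above all others. It rose 1.43-fold with HNG, with a log2 fold change of 0.51 ± 0.101 (SE) and an edgeR adjusted p of 0.01, and without replicate 4 of both treatments the log2 fold change was 0.44 with an adjusted p of 0.0682. On log2(FPKM + 1), a scale that understates changes of scarce genes, limma gave 0.28. Against MOTS-c the log2 fold change of Optc was 0.72 ± 0.113 (SE) with an edgeR adjusted p of 0.00333.

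Prelp and Fmod prompted this look, so Optc is the 1 call it adds, where 3.40% of all genes tested were called higher. The flanking genes were not called, as held for most genes. Atp2b4, which encodes a calcium pump, had a log2 fold change of -0.06 (edgeR adjusted p = 0.675), and Btg2, an antiproliferative gene, had -0.02 (adjusted p = 0.919). The count of Prelp was 15.5 to 21.1 times that of Optc in the 12 libraries. Whether reads of one gene were counted on its neighbour was not tested, and the use of strand in counting is not given in the sources used here.

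The other SLRP clusters gave mixed values with HNG. In the cluster of Dcn, Lum, Kera and Epyc, Kera (keratocan, of the cornea) had 0 counts in all 12 libraries. Epyc (epiphycan, of growth plate cartilage) had a log2 fold change of -0.37 with an edgeR adjusted p of 0.0777, opposite in sign to Dcn of the same cluster. In this cluster 0 of 3 tested genes were called by edgeR, 2 had an unadjusted p below 0.05 and 1 was called by DESeq2. In the cluster of Ogn, Omd, Aspn and Ecm2, 0 of 4 were called by edgeR or DESeq2 and 2 had an unadjusted p below 0.05. There Ecm2, which encodes an SLRP-related matrix protein, had a log2 fold change of 0.28 (adjusted p = 0.156) and Aspn -0.22.

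**Figure D4:**
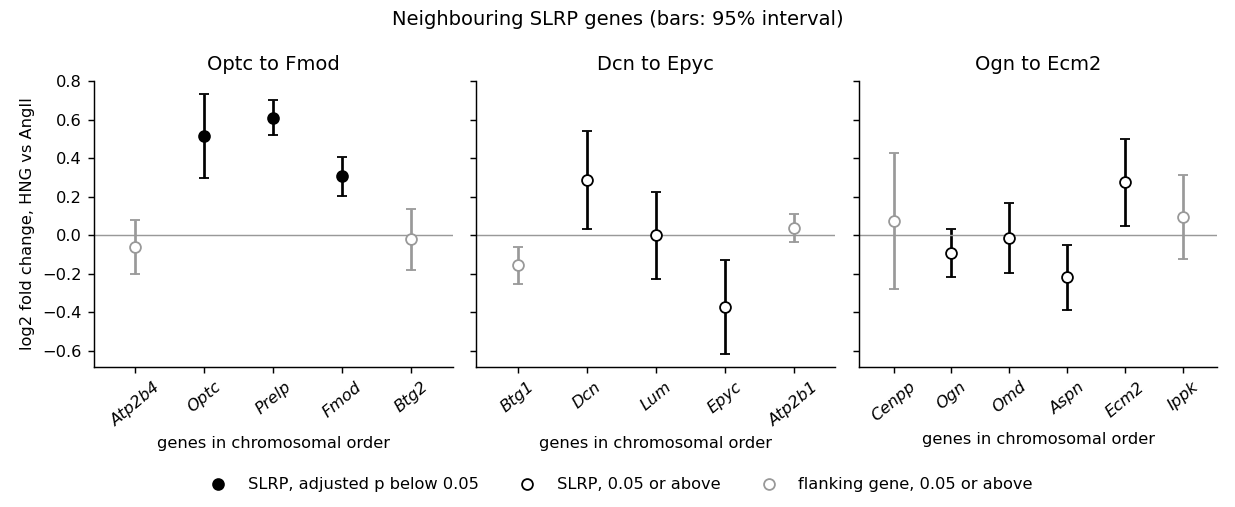
Log2 fold change of HNG against AngII for neighbouring genes in 3 SLRP clusters, drawn in chromosomal order without distances, with bars for the 95% interval, black for SLRP genes and grey for flanking genes. The 3 SLRP genes from Optc to Fmod lie above 0 and are filled for an adjusted p below 0.05, and no gene of the other 2 clusters is filled.

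The promoter of Fmod is shown because Fmod was the called member with a sequence in the RefSeq promoter table, which held 6 of the 9 members. The window is the 250 bases before the start of Fmod in the build GRCr8, chr13:48045317-48045566 on the + strand. Capitals mark a CCAAT box and a GC box.
Fmod: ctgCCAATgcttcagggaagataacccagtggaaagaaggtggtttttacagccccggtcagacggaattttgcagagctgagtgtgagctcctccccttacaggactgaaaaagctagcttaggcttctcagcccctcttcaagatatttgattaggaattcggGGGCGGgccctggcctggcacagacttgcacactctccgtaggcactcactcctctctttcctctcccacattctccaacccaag

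The window had a GC content of 52.8%, beside a median of 51.2% over 33469 rat promoters of the same length. The GC box GGGCGG began 85 bases before the start and was present in 30.5% of all promoters, and CCAAT began 247 bases before the start and was present in 34.0%. The short SMAD element CAGAC occurred at 191 and 65 bases before the start, and 42.9% of promoters held it. The letters TATAAA (12.9% of promoters), the E-box CANNTG (65.5%) and the AP-1 site TGANTCA (6.34%) were not in this window. Both strands were searched, and no motif overlapped another in it. Among the uncalled members, the window of Lum held CAGAC at 3 places and that of Omd held none of the 6 motifs.

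The replicate number moved with several members. Lum measured 145.0, 152.0, 149.0 and 193.4 CPM in AngII, 156.0, 152.2, 136.0 and 193.2 CPM in AngII+HNG and 142.6, 142.4, 148.7 and 189.4 CPM in AngII+MOTS-c replicates 1 to 4. Replicate 4 was 1.3, 1.3 and 1.31 times the mean of the other 3 libraries of its treatment. For Dcn this ratio was 1.36 in AngII, 1.34 in AngII+HNG and 1.25 in AngII+MOTS-c, and for Podn 1.26, 1.23 and 1.12. For Dcn, replicate 4 thus differed from its own group by more than the fitted 1.22-fold between HNG and AngII.

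In all, 7 of the 9 members had replicate 4 as their highest library in all 3 treatments, against 5.16% of 14618 genes. The exceptions were Prelp, for which replicate 4 was the highest in 0 of 3 treatments, with ratios of 0.922, 0.99 and 0.91, and Fmod, with 1 of 3 treatments and ratios of 0.991, 1.1 and 0.92. This count was made after the values were seen and is a description of these libraries, without a test. Summed CPM of all 9 members was 7144 to 7306 in the 3 libraries of replicate 4 and 6394 to 7008 in the other 9. What the number marks was not tested.

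Within treatments the members divided in the same way. After the mean of each treatment was subtracted from log2 CPM, Dcn and Lum had a Pearson correlation of 0.958 over the 12 libraries. The 21 pairs among the 7 members other than Prelp and Fmod had correlations from 0.491 to 0.958, with a median of 0.764. Prelp correlated negatively with each of those 7, from -0.744 to -0.418. Fmod had correlations from -0.0997 to 0.324 with them, with a median of 0.0645, and 0.386 with Prelp. The libraries share scaling and replicate number, so these are descriptions, and replicate 4 contributes to all of them.

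**Figure D5:**
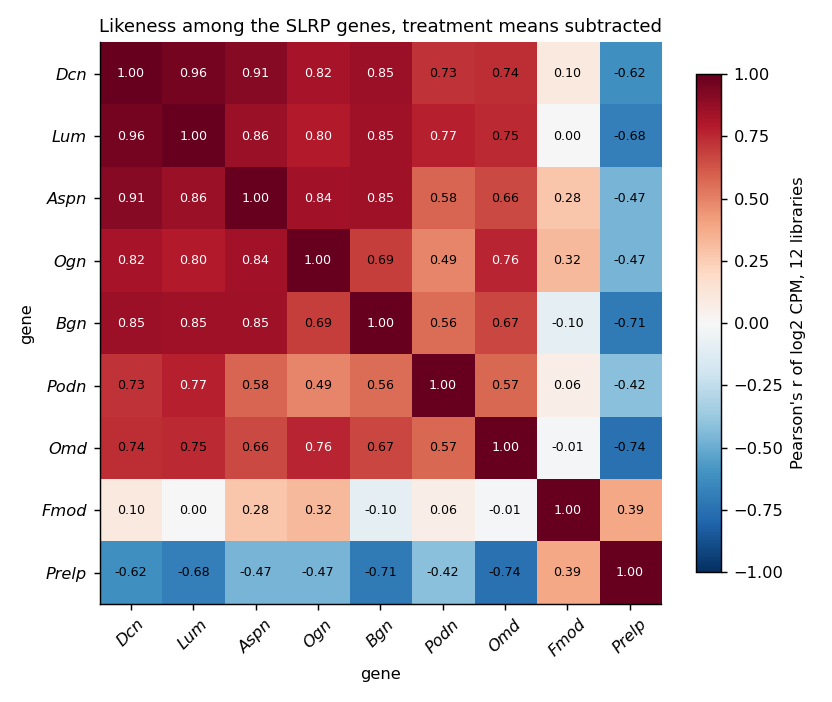
Pearson correlation of log2 CPM between the SLRP genes over 12 libraries after the treatment means were subtracted, with the value in each cell and colours from -1 (blue) to 1 (red). The 7 genes from Dcn to Omd form a block of positive values between 0.491 and 0.958, and the row of Prelp is negative with all 7.

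Of 12371 genes compared, each averaging 1 CPM or more, the closest to Prelp over the 12 libraries was Adamts5, a protease that cleaves aggrecan and other proteoglycans, with r = 0.985. Sulf2, which removes sulfate from heparan sulfate chains, had 0.984, Itpr3 (a calcium release channel) 0.976, Cyb561 0.968 and Arap1 0.968. All 5 were higher in the HNG libraries, which is the division that these values mostly follow, and Fmod came at place 15 with 0.947. Adamts5 stood at 85.7 CPM in AngII, 112.5 in AngII+HNG and 82.8 in AngII+MOTS-c libraries. After the treatment means were subtracted the closest were Adamts7 at 0.918, Rnaseh2c at 0.912, Cog2 at 0.907, Sfxn3 at 0.906 and Tulp3 at 0.899. None of those 5 was called with HNG by edgeR (adjusted p from 0.475 to 0.93), and no p is given for any correlation. On this scale Fmod came at place 2060 with 0.386.

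Genes that build, cut or bind SLRPs were counted next, from lists of 111 genes of which 110 were in the tables. With HNG, 23 of the 96 tested genes of these lists were called by edgeR, where 5.98% of all genes tested were called. The count was 15 without AngII replicate 1 and 14 without AngII replicate 2. The lists were chosen with earlier results of these data known, so these counts and those below are not of unselected genes. Of the 7 tested genes among other SLRP family members, 1 was called, Optc. The median log2 fold change of that list was 0.12. Tsku (tsukushi, a BMP-binding SLRP) was the most abundant of them in CPM, at 62.5 ± 2.33 with HNG and 59.4 ± 1.62 with AngII, with an edgeR adjusted p of 0.349.

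Of 21 tested enzymes for chondroitin and dermatan sulfate chains, which decorate Dcn and Bgn, 1 was called higher and 1 lower with HNG. These were Chpf, a chain polymerizing factor, with a log2 fold change of 0.18 (edgeR adjusted p = 0.0486), and Chst11, a sulfotransferase, with -0.20 (0.0361). Their median was -0.0472. Of 9 tested enzymes for keratan sulfate chains, carried by Fmod and Lum, 2 were higher, St3gal1 with 0.24 (adjusted p = 0.0104) and Chst1, a keratan sulfate sulfotransferase, with 0.53 (0.0398). Their median was 0.106.

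Of 8 tested proteases that process SLRP core proteins, 2 were higher and 1 was lower with HNG. Adamts5 rose 1.32-fold (log2 0.40 ± 0.0355 SE, edgeR adjusted p = 0.00012) and Mmp2, a gelatinase that cuts decorin, rose 1.24-fold (log2 0.30 ± 0.0437, adjusted p = 0.00161). Tll1, a tolloid-like protease of the family that cleaves the biglycan propeptide, fell by 0.43 on the log2 scale (adjusted p = 0.0238). Of 13 receptors bound by SLRPs, 3 were higher. They were Tlr4, a receptor for biglycan and decorin, with 0.54 (adjusted p = 0.00495), the endocytic receptor Lrp1 with 0.17 (0.012) and Kdr, a VEGF receptor, with 0.43 (0.0275). Itgb1, the β1 integrin, fell by 0.20 (0.00853).

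Of 8 tested growth factors held by SLRPs, 4 were called lower by edgeR with HNG. Ccn4 fell by 0.64 on the log2 scale (adjusted p = 0.000257), Tgfb3 by 0.41 (0.0021), Tgfb2 by 0.38 (0.00148) and Ccn2, the connective tissue growth factor, by 0.31 (0.00454). Tgfb1 had -0.06 (adjusted p = 0.624). The median of this list was -0.181, beside 0.00431 over all genes. Of 10 collagens that bind SLRPs, 1 was called, Col12a1, a fibril-associated collagen, which fell by 0.30 (adjusted p = 0.00608), and the list's median was -0.00311. Col1a1 and Col3a1, the main fibrillar collagens, had log2 fold changes of -0.04 (adjusted p = 0.687) and 0.06 (0.562).

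Among 20 tested core proteins of other proteoglycan families, 3 were higher and 3 were lower with HNG. The 4 with the smallest p were Gpc3, a glypican, at 0.54 (edgeR adjusted p = 0.00015), Sdc2 and Sdc1, syndecans, which fell by 0.32 (0.00563) and 0.25 (0.00945), and Gpc4, which fell by 0.19 (0.0191). The other called genes were Gpc1 and Acan, both higher. The median was 0.0546.

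With MOTS-c against AngII, 0 of the 96 tested genes of these lists were called by edgeR, 2 had an unadjusted p below 0.05 and 0 were called by DESeq2. Between the peptides 15 of 96 were called, where 4.41% of all genes tested were called, and 9 without AngII+MOTS-c replicate 1. Adamts5 (log2 0.44, adjusted p = 8.31e-05), Mmp2 (0.36, 0.0029), Chpf (0.22, 0.00944), Gpc3 (0.56, 0.00376), Gpc1 (0.20, 0.0411), Acan (0.58, 0.0304), Tlr4 (0.36, 0.0478) and Optc were higher with HNG by edgeR. Ccn4 (-0.59, 0.000309), Tgfb2 (-0.38, 0.00246), Ccn2 (-0.28, 0.0124), Tgfb3 (-0.31, 0.0195), Col12a1 (-0.36, 0.0029), Sdc2 (-0.30, 0.00668) and Itgb1 (-0.16, 0.0421) were lower with HNG than with MOTS-c. Whether the lists differed from other genes was not tested.

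Some markers of other cell types moved with HNG beside Prelp and Fmod, and the counts that follow stand beside 5.98% of all genes called in either direction and 3.40% called higher. In a bulk sample fewer cells of a type and less RNA per cell cannot be told apart. The summed macrophage list was 357.6 to 470.0 CPM in the AngII+HNG libraries, 264.3 to 319.7 CPM in AngII and 259.1 to 315.7 CPM in AngII+MOTS-c libraries, and 4 of its 11 tested genes were called higher against AngII by edgeR (Lyz2, Cd68, Mrc1 and Ptprc), while Cd163 was below 1 CPM. The largest part of that list was Lyz2, at 171.4 CPM with HNG and 102.4 CPM in AngII, and 3 of the 11 genes, Adgre1, C1qb and C1qc, had lower means with HNG and were not called (log2 -0.36, -0.05 and -0.43). The endothelial list summed to 102.1 to 112.4 CPM with HNG, 79.8 to 89.9 CPM in AngII and 83.8 to 89.6 CPM with MOTS-c, with 4 of 9 called higher (Tie1, Tek, Egfl7 and Kdr), while Emcn had a lower mean with HNG and was not called (log2 -0.185). The smooth muscle and pericyte list summed to 6883 to 7270 CPM with HNG, 8445 to 8626 CPM in AngII and 7976 to 8583 CPM with MOTS-c, and 5 of 10 were called lower (Acta2, Tagln, Myh11, Cnn1 and Notch3). Acta2, at 3384 CPM with HNG and 4155 CPM in AngII, encodes α-SMA, which the study measures as a marker of fibroblast activation. This list therefore does not mark other cells alone, and which cells its values come from was not tested.

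Of the fibroblast markers, 2 of 10 were called higher with HNG, Tcf21 and Thy1, and the list summed to 72408 to 79900 CPM with HNG and 74226 to 78141 CPM in AngII. The cardiomyocyte list had 1 of 10 called higher, Tnni3, the epicardial and mesothelial list 1 of 7, Upk1b, and the Schwann cell list 0 of 4 by edgeR and 0 of 4 at an unadjusted p below 0.05. The list for tendon, valve and cartilage, tissues rich in SLRPs, had 1 of 9 higher (Acan) and 1 lower (Sox9). The means of Tnmd, Thbs4, Comp, Chad and Col2a1 were below 1 CPM in each treatment. The part of these cells in the values of Prelp and Fmod was not tested.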

How the data were processed

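The mRNA libraries of 12 cultures, 4 per treatment, were sequenced as paired-end reads by the study. The authors deposited raw read counts for each gene, as whole numbers, beside FPKM values that divide them by transcript length and library total. The submitters' processing notes name HISAT2, Picard 1.41 and SAMtools 0.1.18. Genome build, counting tool and strand setting are not given in the sources used here. Treatment and replicate number were taken from the sample titles, doses and times from the study's methods.

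The counts were fitted with edgeR 4.0.16 under R 4.3.3. After filterByExpr and TMM scaling, genes were tested with glmQLFit and glmQLFTest on the 8 libraries of each comparison, with Benjamini-Hochberg adjustment over all genes tested and a threshold of 0.05. Standard errors came from the F statistic. CPM used the TMM factors of all 12 libraries, and correlations used log2 CPM with a prior count of 2. A depth of 27960586 to 38322354 counts puts 3 counts at 0.0783 to 0.107 CPM. The computation was tested on simulated counts. DESeq2 1.42.0 and limma 3.58.1 on log2 FPKM plus 1 or 0.1 were among the alternatives, with other scaling and filters, blocks by number and the omission of single libraries.

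The members and lists were chosen with earlier results of these data known. All 9 members were named in every comparison, list genes where called (at most 4 per list with the smallest p in the comparison with AngII, the rest named only), and the 5 genes closest to Prelp. Tgfb1, Tsku, Col1a1, Col3a1, Epyc, Ecm2, Trim15 and the flanking genes were added once their values had been seen. Kera and the uncalled cell type markers were also named by their values. Pcolce2 was the 1 list gene not found in the tables. Promoter sequences came from RefSeq (GRCr8) and were cut to the bases before the start, and gene order came from the RefSeq table of the same build.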

Additional observations from a re-analysis of the deposited data

Results flagged for a closer look

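In a group of 4 libraries, a library was singled out when its gap to the nearest other, divided by the range, exceeded Dixon's critical value at 95%. Of 27 groups (9 members in 3 treatments), 3 had such a library. Chance gives about 1 in 20 for independent groups. These groups share libraries and their genes correlate within treatments, so no excess can be read from the count. All 3 were replicate 4, namely Dcn in AngII at 145.1 CPM, Lum in AngII at 193.4 CPM and Lum in AngII+MOTS-c at 189.4 CPM, each the highest of its group. The part of the replicate number in these values was not tested.

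The effects of the peptides over AngII differed, by the edgeR contrast between them, for Prelp (log2 difference 0.63, adjusted p = 3.37e-05), Fmod (0.35, 0.00191) and Optc (0.72, 0.00333), all higher with HNG in 4 of 4 libraries. The doses of the peptides were not matched.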

How the results depend on the processing

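With HNG against AngII, 2 members were called, Prelp and Fmod, and both were called in each of 20 alternatives. The replicate block and the block by library-name number each gave 5 (Dcn, Aspn and Podn added), replicates 1 to 3 alone gave 4 (Dcn and Podn added), and the omission of single libraries gave 2 to 4. Between the peptides the replicate block gave 4 (Dcn and Podn added) and the others 2 to 3. With MOTS-c against AngII 0 were called in every alternative. Over all genes HNG against AngII gave 869 calls, 1111 with the replicate block, and 431 without AngII replicate 1, 485 without replicate 2, 512 without replicate 3, 577 with replicates 2 and 3 summed and 541 with replicates 1 to 3 alone. HNG against MOTS-c gave 637, with 1054 under the replicate block, 1042 with DESeq2, 975 with 12 libraries in one fit, 416 without AngII+HNG replicate 2, 324, 322 and 389 without AngII+MOTS-c replicates 1, 2 and 3 and 377 with replicates 1 to 3 alone, and MOTS-c against AngII gave 1 and ranged from 0 to 3. List genes called ranged from 14 to 33 (main 23) with HNG and from 9 to 28 (main 15) between the peptides.

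Same-numbered libraries had correlations of -0.0755 to 0.212 in their deviations from the treatment means over all tested genes, so the numbers were not treated as pairs. For 7 of the 9 members replicate 4 was nonetheless the highest library in all 3 treatments. The calls of Dcn, Aspn and Podn depend on this choice. Between 2 and 5 of 8 libraries per comparison were closest to their own number. RLE scaling left the calls of members as they were.

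Sign changes occurred among uncalled members close to 0. For HNG against AngII, Lum was at -0.0039 with DESeq2 and with RLE, -0.0015 without the filter, -0.002 with 12 libraries in one fit, -0.0016 with the replicate block and with replicates 1 to 3 alone, -0.0006 with the library-name block, and -0.106 to 0.103 without single libraries. Omd was at 0.012 with replicates 2 and 3 summed, 0.0041 and 0.0045 on log2 FPKM, and -0.0631 to 0.0235 without single libraries. For MOTS-c against AngII, Ogn was at 0.0048 on log2 FPKM with either pseudocount, 0.0126 with replicates 1 to 3 alone, and -0.0256 to 0.0239 without single libraries. There the ranges without single libraries were -0.0563 to 0.0069 for Prelp, -0.17 to 0.0427 for Dcn, -0.144 to 0.0682 for Lum and -0.0031 to 0.127 for Podn, and between the peptides -0.0707 to 0.143 for Lum. The cause was not tested. All 27 FPKM levels moved by less than 1 SD when rebuilt from counts.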
